A study of Mus musculus with 24 samples.

Results

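A set of 10 genes of the bone morphogenetic protein (BMP) and activin signalling system was followed through lung development in the mouse. They were chosen by name, as the rows of the gene table whose symbol was Bmp2, Bmp3, Bmp4, Bmp5, Bmp6, Inhba, Fst, Nog, Grem1 or Id1, and all 10 were found among the 51912 genes of the table. Earlier results of these data were known when this choice was made. The set is mixed in role: 5 genes encode BMPs, Inhba encodes the subunit of activin A, Fst, Nog and Grem1 encode secreted antagonists, and Id1 is neither a ligand nor an antagonist but a gene that BMP signalling switches on.

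BMPs and activins are dimeric, secreted members of the TGF-beta superfamily. They bring type I and type II receptor kinases together at the cell surface, and these phosphorylate SMAD proteins, SMAD1, SMAD5 and SMAD9 for most BMPs and SMAD2 and SMAD3 for activins, which enter the nucleus with SMAD4 and change transcription. Noggin and gremlin bind BMPs outside the cell and keep them from their receptors, and follistatin does so mainly for activins. In the developing mouse lung, Bmp4 is known from the tips of growing airways and from the mesenchyme around them, and BMP signalling takes part in airway branching, in the layout of proximal and distal airways and in the growth of vessels.

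RNA was taken from whole lungs at embryonic day 16 (E16), at birth (postnatal day 0, P0) and at postnatal day 3 (P3), from 4 controls and 4 conditional knockouts (CKO) per stage, which gave 24 libraries. Titles name the alleles Tbx4rtta, tetocre and Sin3a F/+ for the controls at E16 and P0, and Tbx4rtta, tetocre and Sin3a F/F for the CKO lungs of every stage. The P3 controls are also titled Sin3a F/F, so by title they carry the alleles of the P3 CKO lungs, and only the words control and CKO set them apart. In every group the dams were given doxycycline from embryonic day 12, which turns on Cre through the Tbx4-driven transactivator, known to be active in lung mesenchyme. Which cells lost Sin3a is not shown by these data, and epithelium, endothelium and blood were in the RNA too. In such bulk tissue, fewer cells of a type and less RNA per cell cannot be told apart. Sin3a encodes the protein on which a corepressor complex with histone deacetylases is built.

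Library totals ran from 27018125 to 36347041 counts, and levels are given below as CPM, counts scaled to a common library total. Sin3a itself had means of 133 ± 7.41 CPM in E16 controls and 129 ± 16.7 CPM in E16 CKO lungs, 95.5 ± 9.16 and 103 ± 13.1 CPM at P0, and 96.9 ± 6.05 and 103 ± 3.50 CPM at P3 (SD, n = 4). It was not called lower in CKO lungs at any stage, and its log2 fold change over the 3 stages was 0.05 ± 0.06 (edgeR, adjusted p = 0.707); counts over the whole gene do not measure the floxed part. The markers of lung mesenchyme, endothelium and epithelium were above 0 in every library. At P0, 2 libraries carried RNA of another tissue: 9 thymocyte markers summed to 1828 CPM in control replicate 3 and to 1404 CPM in CKO replicate 1, against 3.899 to 12.34 CPM in the other 6. In P0 CKO replicate 3, 8 cartilage markers summed to 364.3 CPM and 9 neuronal markers to 123.7 CPM, the highest of all 24 libraries for both lists. Results at P0 are therefore given with and without these libraries where that matters.

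Promoter sequences of 5 of the genes were at hand from RefSeq (build GRCm38.p6, 250 bases before to 50 after the start of the gene), and 4 are printed because the results below turn on these genes. Bmp6 and Bmp4 moved in opposite directions between E16 and birth, and Inhba and Grem1 deviated together from library to library. The RefSeq start of Bmp6 lies inside the gene as GENCODE draws it. Capitals mark matches, on either strand, to the GC box, TATA box, CCAAT box, GC-rich BMP element or E-box, whose letters are spelled out after the sequences.
Bmp6, chr13:38345466-38345765, plus strand: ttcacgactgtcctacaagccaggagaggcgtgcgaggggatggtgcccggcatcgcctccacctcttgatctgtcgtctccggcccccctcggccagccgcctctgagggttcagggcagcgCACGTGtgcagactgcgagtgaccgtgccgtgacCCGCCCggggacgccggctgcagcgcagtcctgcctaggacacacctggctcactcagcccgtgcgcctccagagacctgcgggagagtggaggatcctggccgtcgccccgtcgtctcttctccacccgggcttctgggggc
Bmp4, chr14:46390620-46390919, minus strand: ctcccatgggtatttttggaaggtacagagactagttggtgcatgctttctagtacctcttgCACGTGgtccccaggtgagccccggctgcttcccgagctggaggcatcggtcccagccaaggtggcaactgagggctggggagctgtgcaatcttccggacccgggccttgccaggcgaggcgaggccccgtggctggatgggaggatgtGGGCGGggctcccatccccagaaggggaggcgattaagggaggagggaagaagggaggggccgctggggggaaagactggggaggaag
Inhba, chr13:16011601-16011900, plus strand: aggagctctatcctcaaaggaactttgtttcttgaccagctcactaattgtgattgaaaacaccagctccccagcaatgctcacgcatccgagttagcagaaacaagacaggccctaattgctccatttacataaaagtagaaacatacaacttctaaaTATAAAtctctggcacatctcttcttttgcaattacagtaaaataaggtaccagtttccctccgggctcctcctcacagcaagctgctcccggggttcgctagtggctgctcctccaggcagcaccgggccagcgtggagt
Grem1, chr2:113758599-113758898, minus strand: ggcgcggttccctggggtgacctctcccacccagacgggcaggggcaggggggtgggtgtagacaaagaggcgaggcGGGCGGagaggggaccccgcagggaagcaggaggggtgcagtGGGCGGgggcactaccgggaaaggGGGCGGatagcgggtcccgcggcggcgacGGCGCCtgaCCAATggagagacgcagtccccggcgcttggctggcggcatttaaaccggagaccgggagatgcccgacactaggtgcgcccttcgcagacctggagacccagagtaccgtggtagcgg

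The Bmp6 and Bmp4 windows each held 1 E-box, with the letters CACGTG, at 127 and 188 bases before the start. Such an E-box was in 7.17% of all 32544 promoters of the same length. Both also held 1 GC box, at 93 and 38 bases before the start, whose letters GGGCGG were in 35.9% of promoters. The Grem1 window held 3 GC boxes and 1 CCAAT box, a motif searched by the letters of its name and found in 37.4% of promoters. It also held 1 BMP element, spelled GGCGCC and found in 11.9%. The 5 motifs overlap in none of their letters within these windows. The Inhba window held 1 match in all, a TATA box 91 bases before the start, with the letters TATAAA, which 13.6% of promoters held. The Grem1 and Bmp6 windows were rich in G and C, at 70.7% and 69.3% with 28 and 27 CpG dinucleotides, while that of Inhba had 47.7% and 7, and the median promoter 53.0% and 7. Bmp5, at 43.3% and 4, held none of the 5 motifs. These are matches of letters in these windows and not measured sites.

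Per length of transcript, Bmp5 was the most abundant of the 10 messages in 5 of the 6 groups. Its mean ranged from 20.3 to 31.9 CPM per kilobase of exon. In E16 controls Bmp5 stood at 29.1 ± 1.83 CPM per kilobase (SD, n = 4) and Bmp4 next at 24.9 ± 4.44, and the ranges of these neighbours overlapped. Id1 followed at 8.37 ± 1.04 and Bmp3 at 3.44 ± 0.148, each apart from the gene above it. Nog, Bmp2, Inhba and Bmp6 then lay between 0.799 and 0.667 CPM per kilobase with overlapping ranges. The antagonists Fst and Grem1 were lowest, at 0.153 ± 0.0740 and 0.106 ± 0.0118, and Grem1 was the lowest in every group.

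At P0 the order changed in both genotypes. In P0 controls Id1 had the highest mean, 23.7 ± 11.96 CPM per kilobase, but its libraries spread from 10.8 to 38.0 and overlapped those of Bmp5 (20.3 ± 6.51) and Bmp4 (13.4 ± 2.93). Bmp6 had moved from the eighth place at E16 to the fifth in P0 controls (3.82 ± 0.550) and to the fourth in P0 CKO lungs (6.29 ± 1.19). Bmp5, Bmp4 and Id1 were the top 3 at every stage in both genotypes, and at P3 they stood in this order, as at E16.

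**Figure D1:**
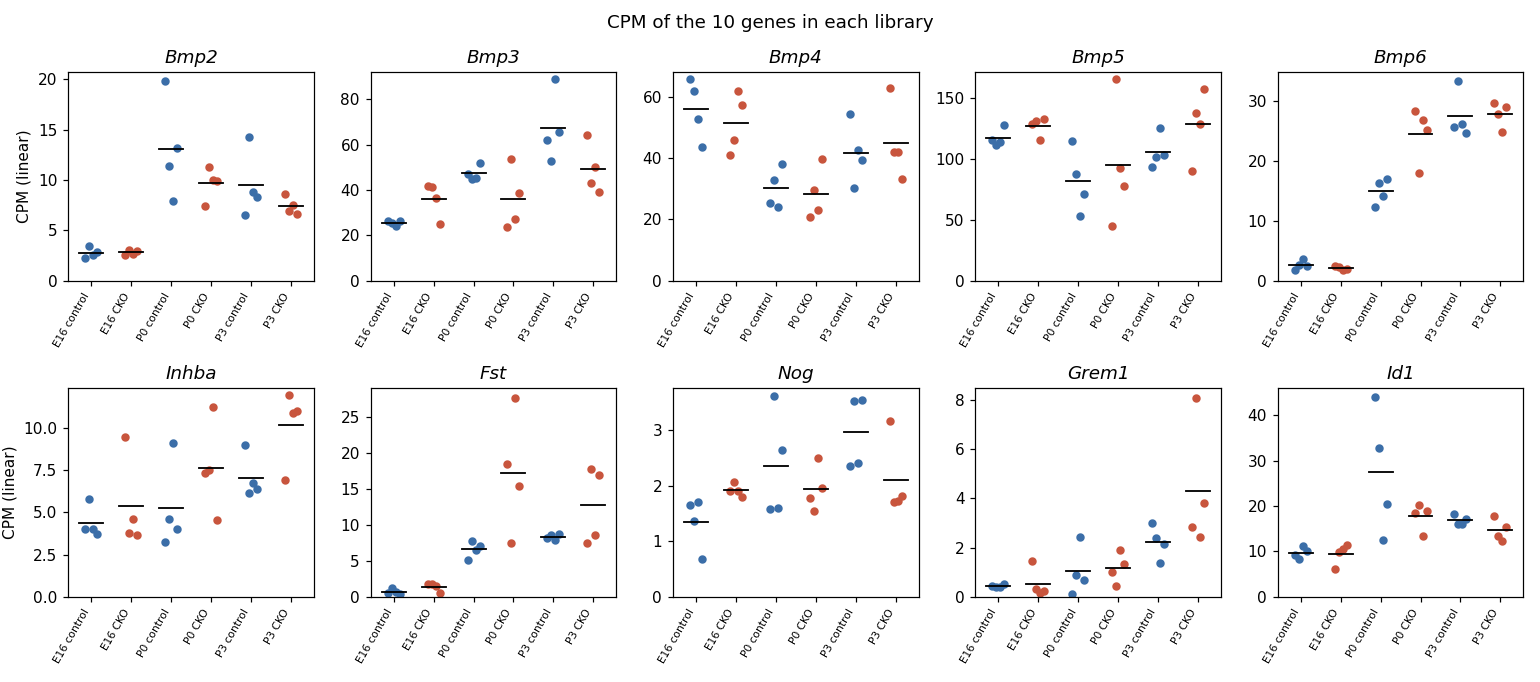
CPM of each gene in every library (points) with the group mean (line), on linear axes that start at 0, controls in blue and CKO lungs in red. Bmp6 and Fst lie low in all 8 libraries of E16 and higher in all 16 libraries of P0 and P3, while Bmp4 is lower at P0 than at E16.

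From E16 to P0, 6 of the 10 rose in controls and 1 fell, against 25.3% of all 18415 genes tested that rose and 22.3% that fell. In CKO lungs 4 rose and 1 fell, against 24.7% and 20.6%. The median log2 fold change of the 10 genes was 1.06 in controls and 0.71 in CKO lungs, beside 0.05 and 0.06 over all genes. Per the labels, libraries were made at each stage, so that stage and library preparation cannot be told apart. Calls are at an adjusted p under 0.05 in edgeR's quasi-likelihood test, with p adjusted over all genes tested, and errors of fold changes are SE.

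Among the ligands, Bmp6 rose most. Bmp6, on chromosome 13 (38345107 to 38500302, GRCm38), encodes a BMP best known as the regulator of hepcidin and so of iron. Its 4 E16 controls were at 1.78, 2.61, 3.60 and 2.41 CPM, and its P0 controls at 12.2, 16.3, 14.1 and 17.0 CPM. The E16 CKO lungs held 2.40, 2.34, 1.74 and 1.99 CPM and the P0 CKO lungs 28.3, 17.9, 26.8 and 25.1 CPM. All libraries of P0 lay above all of E16 in both genotypes. The log2 fold change was 2.52 ± 0.19 in controls, 5.74-fold, and 3.53 ± 0.20 in CKO lungs, 11.6-fold (edgeR, adjusted p = 2.41e-09 and 6.03e-11). Txndc5, a gene at 240 to 352 CPM over the 24 libraries, overlaps only the end of Bmp6, from 38500079 to 38500302, on the other strand. Its reads from there could enter this count, since the use of strand in counting is not given in the sources used here. Their part in the Bmp6 values was not tested.

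Bmp2, on chromosome 2 (133552159 to 133562885), encodes a BMP of bone and heart development. Its E16 controls were at 2.24, 3.40, 2.55 and 2.84 CPM and its P0 controls at 19.9, 11.4, 7.93 and 13.2 CPM. The stages did not overlap, and P0 control replicate 1 was the highest of all. The CKO lungs held 2.53, 3.07, 2.64 and 2.98 CPM at E16 and 7.45, 11.3, 10.0 and 9.94 CPM at P0. The rise was 2.25 ± 0.25 in controls and 1.78 ± 0.25 in CKO lungs on the log2 scale (edgeR, adjusted p = 4.51e-07 and 6.56e-06).

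Bmp3, on chromosome 5 (98854415 to 98884396), encodes a BMP that opposes other BMPs in bone. It rose in controls from 26.3, 25.4, 23.9 and 26.1 CPM at E16 to 47.2, 44.7, 45.4 and 51.8 CPM at P0, by 0.89 ± 0.22 on the log2 scale (edgeR, adjusted p = 0.00181). The control groups did not overlap and were tight. In CKO lungs, at 41.7, 41.2, 36.2 and 24.99 CPM at E16 and 23.7, 53.6, 27.1 and 38.8 CPM at P0, the stages overlapped, and the log2 fold change was -0.01 ± 0.21 (edgeR, adjusted p = 0.975).

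Bmp4, on chromosome 14 (46383520 to 46390669), was the 1 gene of the set called lower at P0 than at E16. In controls it stood at 65.9, 61.8, 52.7 and 43.5 CPM at E16 and at 25.3, 33.0, 23.99 and 38.0 CPM at P0. In CKO lungs it went from 40.8, 45.7, 61.7 and 57.5 CPM to 20.9, 29.5, 23.0 and 39.8 CPM. Every P0 library lay below every E16 library of its genotype. The log2 fold change was -0.90 ± 0.23 in controls and -0.86 ± 0.23 in CKO lungs (edgeR, adjusted p = 0.00273 and 0.00393).

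Bmp5, on chromosome 9 (75775364 to 75900310), 18.6 megabases from Sin3a, encodes a ligand known from skeletal form and was not called between E16 and P0. Its E16 libraries were close together, at 115, 111, 113 and 128 CPM in controls and 129, 131, 116 and 133 CPM in CKO lungs. Its P0 libraries spread wider, at 115, 87.5, 52.9 and 71.1 CPM in controls and 44.4, 165, 92.5 and 77.4 CPM in CKO lungs, and overlapped those of E16. The log2 fold change was -0.52 ± 0.27 in controls (edgeR, adjusted p = 0.111), and -0.78 (edgeR, adjusted p = 0.0278) without P0 control replicate 1. In CKO lungs it was -0.42 ± 0.27 (edgeR, adjusted p = 0.205), and -0.83 (edgeR, adjusted p = 0.00605) without P0 CKO replicate 2, the library at 165 CPM.

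Inhba, on chromosome 13 (16011851 to 16031621), encodes the activin A subunit and was low throughout, at group means of 4.38 to 10.2 CPM. From E16 to P0 its log2 fold change was 0.27 ± 0.33 in controls and 0.51 ± 0.33 in CKO lungs, without a call (edgeR, adjusted p = 0.539 and 0.216). The value in controls turned to -0.14 without P0 control replicate 3, one of the libraries with thymocyte RNA. In CKO lungs it was 0.94 and called without E16 CKO replicate 1 (edgeR, adjusted p = 0.0225). From E16 to P3 Inhba rose in CKO lungs by 0.93 ± 0.33 on the log2 scale (edgeR, adjusted p = 0.032), and its value in controls was 0.69 ± 0.33 (adjusted p = 0.104). The call in CKO lungs was lost when any 1 of replicates 2, 3 or 4 of E16 or of P3 was left out.

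Of the antagonists, Fst had the largest log2 fold change of all 10 genes between E16 and birth. In CKO lungs it lay within its SE of that of Bmp6, 3.53 ± 0.20. Fst, on chromosome 13 (114452290 to 114458951), encodes follistatin, which binds activins almost irreversibly. Its E16 controls were at 0.540, 1.201, 0.605 and 0.454 CPM and its P0 controls at 5.08, 7.81, 6.57 and 7.06 CPM. Its CKO lungs went from 1.72, 1.71, 1.53 and 0.590 CPM to 18.6, 7.44, 27.7 and 15.4 CPM. The stages did not overlap in either genotype. At E16 Fst rested on few counts, 16 to 35 per library in controls and 19 to 63 in CKO lungs. The rise was 3.25 ± 0.41 in controls and 3.64 ± 0.40 in CKO lungs on the log2 scale, 9.50-fold and 12.4-fold (edgeR, adjusted p = 1.7e-06 and 3.19e-07).

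Nog, on chromosome 11 (89300638 to 89302332), encodes noggin. It was at 1.65, 1.37, 1.71 and 0.681 CPM in E16 controls and at 1.58, 3.62, 1.61 and 2.64 CPM in P0 controls. These groups overlapped. The rise of 0.80 ± 0.31 on the log2 scale passed the test narrowly (edgeR, adjusted p = 0.0363). It failed without E16 control replicate 2 (edgeR, adjusted p = 0.0655) or 4 (0.126), and without P0 control replicate 2 (0.184) or 4 (0.0787). In CKO lungs Nog was at 1.80 to 2.07 CPM at E16 and 1.54 to 2.495 CPM at P0, with a log2 fold change of 0.02 ± 0.31 (edgeR, adjusted p = 0.962).

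Grem1, on chromosome 2 (113746164 to 113758646), encodes gremlin and rested on few counts, 3 to 91 per library at E16 and P0. Its E16 controls were at 0.432, 0.412, 0.403 and 0.511 CPM. Its P0 controls were at 0.103, 0.904, 2.44 and 0.677 CPM, on both sides of the E16 values. From E16 to P0 it was not called in controls, at 1.23 ± 0.69 on the log2 scale, or in CKO lungs, at 1.15 ± 0.69 (edgeR, adjusted p = 0.149 and 0.181). The value in controls was 0.34 without P0 control replicate 3, and that in CKO lungs was 2.39 and called without E16 CKO replicate 1 (edgeR, adjusted p = 0.00928). From E16 to P3, Grem1 rose in both, by 2.33 ± 0.70 in controls and 3.02 ± 0.71 in CKO lungs (edgeR, adjusted p = 0.0111 and 0.00201).

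Id1, on chromosome 2 (152736251 to 152737410), encodes an inhibitor of helix-loop-helix factors and is a textbook target of SMAD1 and SMAD5. It rose in controls from 9.21, 8.37, 11.2 and 10.1 CPM at E16 to 44.1, 32.8, 12.5 and 20.4 CPM at P0. All P0 libraries were above all of E16, with the lowest, replicate 3, next to the E16 range. In CKO lungs Id1 went from 6.06 to 11.3 CPM to 13.3 to 20.3 CPM, also without overlap. The log2 fold change was 1.497 ± 0.27 in controls and 0.91 ± 0.26 in CKO lungs (edgeR, adjusted p = 0.000103 and 0.00788).

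**Figure D2:**
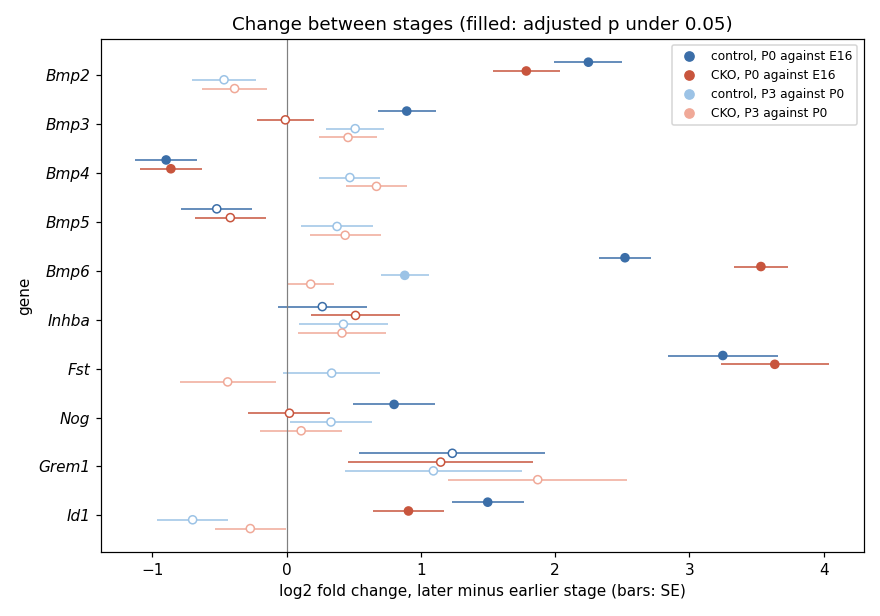
Log2 fold change between stages (points, bars are SE) for each gene, in control lungs (blue) and CKO lungs (red), dark for P0 against E16 and pale for P3 against P0, filled where the adjusted p is under 0.05. Bmp6 and Fst rose from E16 to P0 by more than 2 on the log2 scale in both genotypes, Bmp4 fell in both, and 1 point of the later interval is filled, that of Bmp6 in controls.

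From P0 to P3 less moved. In controls 4.97% of all genes rose and 6.34% fell, and of the 10 only Bmp6 was called. It went on rising from its P0 values to 25.6, 33.3, 26.1 and 24.7 CPM at P3, above every P0 control, by 0.88 ± 0.18 on the log2 scale (edgeR, adjusted p = 0.00466). In CKO lungs 6.15% of genes rose and 6.90% fell, and edgeR called none of the 10. An unadjusted p under 0.05 in edgeR was reached by 3 of the 10 and by 30.5% of all genes. DESeq2 called 2 of the 10, and its share over all genes is not given here. These were Bmp4, at 0.67 ± 0.23 (edgeR, adjusted p = 0.0547), and Grem1, at 1.87 ± 0.67 (edgeR, adjusted p = 0.0651). The Bmp6 values of the P3 CKO lungs, 29.6, 27.8, 24.8 and 28.9 CPM, overlapped those at P0. Id1 had a log2 fold change of -0.70 ± 0.26 in controls, which did not pass the test (edgeR, adjusted p = 0.0828), and was called without P0 control replicate 3, at -0.94 (edgeR, adjusted p = 0.00629). Without both libraries high in thymocyte markers, 4 of the 10 were called in controls: Bmp6, Bmp2 (-0.64), Grem1 (1.98) and Id1 (-0.94). Calls over all genes rose as well in that fit, to 4064 from 2083 with all libraries.

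Over the whole interval from E16 to P3, 7 of the 10 rose in controls and none was called lower, against 20.0% of all genes that rose and 21.1% that fell. In CKO lungs 5 rose and none was called lower, against 19.9% and 18.8%. Bmp2, Bmp6, Fst and Grem1 rose in both genotypes. Bmp3, Nog and Id1 were called in controls, with log2 fold changes of 1.40, 1.13 and 0.80, and had 0.45, 0.13 and 0.64 in CKO lungs (edgeR, adjusted p = 0.103, 0.765 and 0.0607). The call of Id1 in controls was lost without E16 control replicate 1 or 2.

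Markers of macrophages moved with Fst and Bmp6 between stages. A list of 12 macrophage genes, added after the genes most like Fst and Bmp6 had been seen, summed to 211.8 to 275.3 CPM at E16, 816.7 to 2154 CPM at P0 and 1628 to 2227 CPM at P3, and 10 of the 12 rose from E16 to P0 in either genotype. Such a rise was not particular to macrophages. In controls the median sum went from 262.1 CPM at E16 to 1049 CPM at P0 for mesothelium and from 264.55 to 1147.95 CPM for heart muscle. For epithelium it went from 4746.5 to 15815 CPM and for endothelium from 1699.5 to 3427.5 CPM. For mesenchyme it was 5100.5 and 4998 CPM, with overlapping ranges of 4084 to 5972 and 3583 to 5811 CPM. It fell for cartilage, from 88.515 to 38.24 CPM. The part of macrophages or of any other cells in the rise of Fst and Bmp6 was not tested.

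The design of the study compares CKO with control lungs at each stage. No gene of the set was called at a single stage, where edgeR called 0.0181% of all genes at E16, 0.0407% at P0 and 0.0117% at P3. At an unadjusted p under 0.05 stood 2 of the 10 at E16, 2 at P0 and 4 at P3, against 10.5%, 6.44% and 15.4% of all genes. Groups did not overlap for Nog at E16 and Bmp6 at P0 and overlapped for all 10 at P3, against 5.74%, 4.61% and 7.45% of all genes without overlap. By stage the 10 genes had median log2 fold changes of 0.21, 0.03 and 0.06, and all genes -0.01, -0.02 and -0.01. With genotype fitted over the 3 stages together, 1 of the 10 genes was called, Fst, which was higher in CKO lungs, where 5.38% of all genes were called higher and 3.00% lower.

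Fst was higher in CKO lungs by 1.00 ± 0.22 on the log2 scale over the 3 stages, 1.99-fold (edgeR, adjusted p = 0.00584). In the values given above, 3 of the 4 CKO lungs exceeded every control at E16, and 3 of 4 did so at P0. At P3 the controls were close together, at 8.18, 8.63, 7.91 and 8.72 CPM, and CKO replicates 2 and 4, at 17.9 and 16.9 CPM, stood apart from replicates 1 and 3, at 7.52 and 8.68 CPM. At E16 and P0 the genotypes thus overlapped through 1 CKO lung, replicate 4 and replicate 2. The sample descriptions carry identifiers whose first number, of a meaning the labels do not give, joins each P0 control to 1 P0 CKO lung. Within these 4 pairs Fst went from 5.08 to 7.44, from 7.81 to 27.7, from 6.57 to 18.6 and from 7.06 to 15.4 CPM, and was higher in the CKO lung of each. Only CKO replicate 2 could have been below its partner for Fst, since the other CKO lungs exceeded every control. For Bmp6 every P0 CKO lung was above every control, so any pairing gives the same outcome. At P3, Fst in CKO replicate 1, at 7.52 CPM, was below control replicates 1 and 2, which share its number. The other P3 CKO lungs were above the controls that share theirs, replicate 3 narrowly, at 8.68 CPM against 8.63 CPM in control replicate 2. At E16, CKO replicate 4, at 0.590 CPM, was below control replicate 3, at 0.605 CPM, and above control replicate 4, which both share its number. The other E16 CKO lungs were above the controls that share theirs. Neither Fst nor Bmp6 was called at P0 with this number as a block. By stage the log2 fold change of Fst was 1.01 ± 0.42, 1.38 ± 0.36 and 0.61 ± 0.27 in turn (edgeR, adjusted p = 0.432, 0.371 and 0.317). DESeq2 called the value at P0 (adjusted p = 0.0248), and called 190 of all genes there, against 7 by edgeR.

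The value of Fst over the 3 stages was 0.95 (edgeR, adjusted p = 0.0117) without the 2 P0 libraries high in thymocyte markers. It was 0.78 (edgeR, adjusted p = 0.0222) when P0 CKO replicate 3 was left out as well, and 0.78 (adjusted p = 0.0765) without any P0 library. At P0 alone it was 1.34 and 0.77 without these 2 and 3 libraries. Summed markers of smooth muscle and myofibroblasts at P0 were at 945.1 to 1577 CPM in controls and 2128 to 2678 CPM in CKO lungs, without overlap, though 0 of the 8 were called and their median log2 fold change was 0.27; their part in the Fst and Bmp6 values at P0 was not tested.

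**Figure D3:**
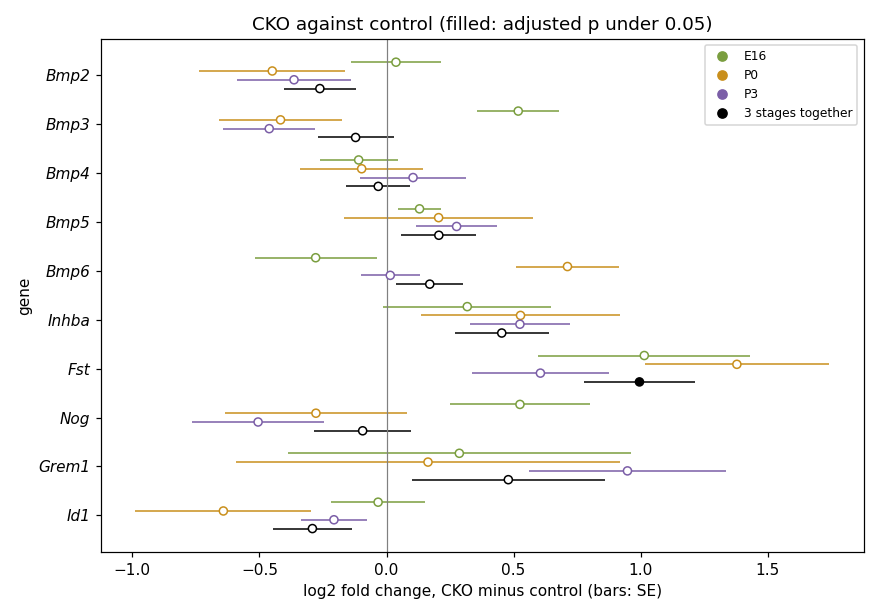
Log2 fold change of CKO against control lungs (points, bars are SE) for each gene at E16, P0 and P3 and over the 3 stages together, filled where the adjusted p is under 0.05. Fst lies to the right of 0 at every stage and its value over the 3 stages, 1.00, is the 1 filled point.

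Of the other antagonists, Nog was at 1.91, 2.07, 1.91 and 1.80 CPM in E16 CKO lungs, above all 4 E16 controls, with a log2 fold change of 0.53 ± 0.27 (edgeR, adjusted p = 0.542). At P3 it was at 3.17, 1.71, 1.73 and 1.81 CPM in CKO lungs and 2.35, 3.53, 2.42 and 3.56 CPM in controls. There the sign was the opposite, -0.51 ± 0.26 (edgeR, adjusted p = 0.383), and CKO replicate 1 lay within the control range. Grem1 at P3 was at 3.00, 2.37, 1.38 and 2.15 CPM in controls and at 2.85, 8.07, 2.42 and 3.82 CPM in CKO lungs. Its CKO replicates 2 and 4 lay above every control, and its log2 fold change was 0.95 ± 0.39 (edgeR, adjusted p = 0.293).

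Among the ligands, Bmp6 at P0 was higher in every CKO lung than in any control, at means of 24.5 ± 4.62 and 14.9 ± 2.15 CPM. Its log2 fold change was 0.71 ± 0.20, 1.64-fold, and did not pass the test within the stage (edgeR, adjusted p = 0.428). It passed in 1 fit of all 24 libraries (0.72, edgeR, adjusted p = 0.0428), which shares its estimate of spread over the groups. That fit called 264 of all genes at P0, against 7 within the stage. Without the 2 libraries high in thymocyte markers the value was 0.61, and without 3 it was 0.50. Macrophage markers at P0 summed to 918.7 to 1727 CPM in controls and 816.7 to 2154 CPM in CKO lungs, and 10 of 12 had positive, uncalled values with a median of 0.46. Of all genes, 46.7% had positive values at P0. At E16 and P3 the genotypes overlapped for Bmp6, with log2 fold changes of -0.28 ± 0.24 and 0.01 ± 0.12.

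Inhba had positive values at every stage, 0.32 ± 0.33, 0.53 ± 0.39 and 0.52 ± 0.20, and 0.45 ± 0.18 over the 3 stages (edgeR, adjusted p = 0.141). The value at P0 was 0.96 without the 2 libraries high in thymocyte markers, and 0.27 to 0.95 with 1 library left out, lowest without CKO replicate 3 and highest without control replicate 3, with no call in any of these. At E16, CKO replicate 1 was at 9.46 CPM, against 3.75, 4.58 and 3.63 CPM in the others. Without that lung the log2 fold change was -0.13. At P3 the CKO lungs were at 6.91, 11.9, 10.9 and 10.97 CPM and the controls at 8.97, 6.16, 6.70 and 6.37 CPM. All CKO lungs but replicate 1 lay above every control, and without that library the value was 0.67 (edgeR, adjusted p = 0.0276). Calls over all genes at P3 rose as well without that library, to 1625 from 2. Over the 3 stages Inhba passed without the 2 libraries high in thymocyte markers, at 0.56 (edgeR, adjusted p = 0.0472), and with the first number of the identifier as a block, at 0.43 (edgeR, adjusted p = 0.0455). With that block 2871 of all genes were called, against 1544 without it.

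Bmp3 had log2 fold changes of 0.52 ± 0.16 at E16, -0.42 ± 0.24 at P0 and -0.46 ± 0.18 at P3, none of which passed (edgeR, adjusted p = 0.337, 0.886 and 0.278). At E16 CKO replicate 4, at 24.99 CPM, was within the control range of 23.9 to 26.3 CPM, and without it the value was 0.66 and passed (edgeR, adjusted p = 0.0267). Calls over all genes at E16 rose as well without that library, to 188 from 3. At P3 the CKO lungs held 64.1, 43.2, 50.3 and 39.0 CPM and the controls 62.0, 52.7, 88.9 and 65.7 CPM. Bmp2, Bmp4 and Bmp5 had values over the 3 stages of -0.26 ± 0.14, -0.03 ± 0.13 and 0.21 ± 0.15, and Id1 of -0.29 ± 0.15 (edgeR, adjusted p = 0.283, 0.92, 0.445 and 0.276). At P3, Bmp5 reached 90.1, 138, 129 and 157 CPM in CKO lungs and 93.3, 101, 125 and 104 CPM in controls, an overlap made by CKO replicate 1.

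Id1 was at 18.5, 20.3, 13.3 and 18.9 CPM in P0 CKO lungs, all within the wide control range given above. Its log2 fold change there was -0.64 ± 0.35 (edgeR, adjusted p = 0.867). It was -0.90 without the 2 libraries high in thymocyte markers, and -0.33 to -0.88 with 1 library left out, nearest to 0 without control replicate 1 and farthest without control replicate 3, with no call in any of these. At P3 it was at 17.8, 13.4, 12.3 and 15.3 CPM in CKO lungs and at 18.3, 16.0, 16.1 and 17.2 CPM in controls. All CKO lungs but replicate 1 lay below every control there, with a log2 fold change of -0.21 ± 0.13 (edgeR, adjusted p = 0.475). All 8 endothelial markers had negative values over the 3 stages as well, with 2 called lower. Over all genes 46.1% had positive values and 3.00% were called lower. The part of endothelium in the Id1 values was not tested.

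Whether the genotype difference changed with stage was tested directly, and 0% of all genes passed for P0 against E16, 0% for P3 against P0 and 0% for P3 against E16 by edgeR, so that none of the 10 did. Over all genes 515, 423 and 212 had an unadjusted p under 0.05, and DESeq2 called 16, 3 and 9. The smallest p among the 10 was that of Bmp6, whose difference at P0 exceeded that at E16 by 1.01 ± 0.26 on the log2 scale (edgeR, unadjusted p = 0.000808, adjusted p = 1). Bmp3 had -0.90 ± 0.30 for the same contrast and -0.96 ± 0.30 for P3 against E16 (edgeR, unadjusted p = 0.00698 and 0.0046, adjusted p = 1 for both). For Fst, 0.39 ± 0.54 and -0.39 ± 0.53 stood for these contrasts.

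The other genes of the pathway were taken from 5 lists. Each list below is to be read against the 5.38% of all genes called higher and the 3.00% called lower over the 3 stages. Over the 3 stages together, 46.1% of all genes had positive values, and their median was -0.02. Of 22 listed ligands, 12 were measured well enough to test, of which 11 had negative values and 1 was called higher, with a median of -0.32. That one was Gdf11, which acts through activin receptors and patterns the axial skeleton. It was higher in CKO lungs by 0.52 ± 0.09 (edgeR, adjusted p = 0.000946), with means of 16.7 ± 1.67 and 23.8 ± 3.46 CPM in E16 controls and CKO lungs, 7.89 ± 1.26 and 12.1 ± 1.91 CPM at P0, and 10.6 ± 0.636 and 14.2 ± 3.22 CPM at P3. Among those not called were Inhbb, the subunit of activin B, at -0.49 ± 0.17, Inha, the inhibin alpha subunit, at -0.45, and Gdf10, at -0.64 (edgeR, adjusted p = 0.0715, 0.138 and 0.143).

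Of 15 other antagonists tested, 1 was called, Bmper, a BMP-binding protein of endothelium, lower by 0.30 in CKO lungs (log2 fold change -0.30 ± 0.09; edgeR, adjusted p = 0.0335). Chrd and Dand5 had -0.35 and -0.36 without a call (edgeR, adjusted p = 0.153 and 0.156), and the list's median was -0.06. Of 16 receptors and co-receptors 1 was called, Tgfbr3, the co-receptor betaglycan, which also binds inhibin, at -0.53 ± 0.16 (edgeR, adjusted p = 0.0451), with a list median of -0.04. Rgma, Acvrl1 and Acvr2a had 0.26, -0.25 and -0.20 without a call. Of 18 SMADs and regulators none was called by edgeR, and the median was -0.04. The smallest p there belonged to Pcsk6, a convertase that cleaves precursors of this family, at -0.31 (edgeR, adjusted p = 0.0569), followed by Smad9 (-0.31), Smad5 (-0.17) and Smad2 (0.09). Of 15 other targets 1 was called, Foxf1, a mesenchymal transcription factor that also stood in the list of mesenchymal markers, at -0.40 ± 0.12 (edgeR, adjusted p = 0.0373), with a median of -0.18. Gata2, Tmem100 and Smad6 had -0.51, -0.51 and -0.32 without a call. At single stages no gene of the 5 lists was called.

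Between E16 and P3 in controls, more of the listed genes were called than between genotypes, as was so over all genes, of which 20.0% rose and 21.1% fell. Of the ligands 2 rose, Inhbb by 3.03 ± 0.29 and Gdf5 by 3.40 ± 0.49, and 3 fell, among them Bmp8b (-2.03 ± 0.26) and Gdf11 (-0.66 ± 0.16). Of the antagonists 4 rose and 1 fell, the risers being Htra1 (2.14), Crim1 (1.59), Fstl3 (1.02) and Nbl1 (0.65). Of the receptors 5 rose and 2 fell. Bmpr2, the type II BMP receptor, rose by 1.49, Acvrl1, the endothelial type I receptor, by 1.22, and Hfe2, the co-receptor hemojuvelin, by 4.72 ± 0.87 from near 0, while Rgma fell by 1.24. Of the SMADs and regulators 5 rose and 3 fell, among them the inhibitory Smad6 (1.98), Tll1 (1.63) and Smurf2 (0.45) upward and Pcsk6 (-2.44) downward. Of the targets 8 rose and 1 fell, with a median of 0.83 beside -0.03 over all genes. Tmem100, which BMP signalling induces in endothelium, rose by 4.17 ± 0.48, Gata2 by 1.84 and Foxf1 by 1.17. All of these named changes passed edgeR's test (adjusted p of 0.0143 or less). In the same contrast 6 of 8 endothelial markers rose, with a median of 0.92; their part in the rise of the targets was not tested.

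**Figure D4:**
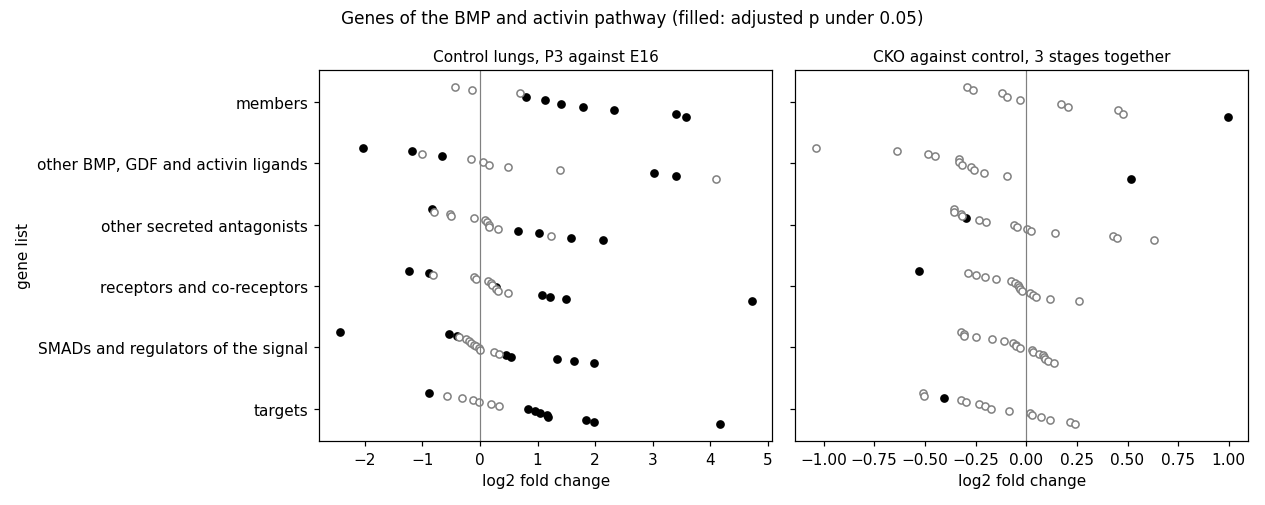
Log2 fold change of each tested gene of the 10 (members) and of 5 pathway lists, in control lungs between E16 and P3 (left) and in CKO against control lungs over the 3 stages (right), filled where the adjusted p is under 0.05. On the left 8 of 15 targets are filled on the right-hand side of 0, and on the right 1 ligand, Gdf11, is.

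Libraries of the same group also differed from each other, and some of the 10 genes did so together. For 45 pairs of genes the deviations of log2 CPM from the group mean were correlated over the 24 libraries, which is a description, since the values share libraries and depth. The strongest were Inhba and Id1, with r = -0.768 (rho = -0.582), and Grem1 and Id1, with r = -0.761 (rho = -0.526). Without the 2 libraries farthest out, P0 control replicates 1 and 3, these were -0.668 and -0.544. Inhba and Grem1 deviated in the same direction (r = 0.68, rho = 0.437), with r = 0.534 without P0 control replicate 1 and E16 CKO replicate 1.

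The libraries at the ends of these relations can be named. P0 control replicate 3 was above its group mean by 0.90 for Inhba and 1.76 for Grem1 and below it for Id1 (-0.97), all in log2 units. E16 CKO replicate 1 had 0.93, 1.85 and -0.60 for the same genes, and P0 control replicate 1 the opposite signs, -0.58, -2.15 and 0.84. P0 control replicate 3 held thymocyte RNA and had the lowest sum of endothelial markers of its stage, 2130 CPM, and the highest sum of heart muscle markers of all 24 libraries, 2061 CPM. E16 CKO replicate 1 had the lowest sum of epithelial markers of all libraries, 2867 CPM, and the highest of heart muscle (581.1 CPM) and neuronal markers (32.18 CPM) at its stage. The part of tissue make-up in these deviations was not tested. Bmp6 and Fst, which had r = 0.929 over all 24 libraries, mostly by stage, had r = 0.436 in their deviations (rho = 0.471), and 0.305 without P0 CKO replicate 2 and E16 CKO replicate 4.

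**Figure D5:**
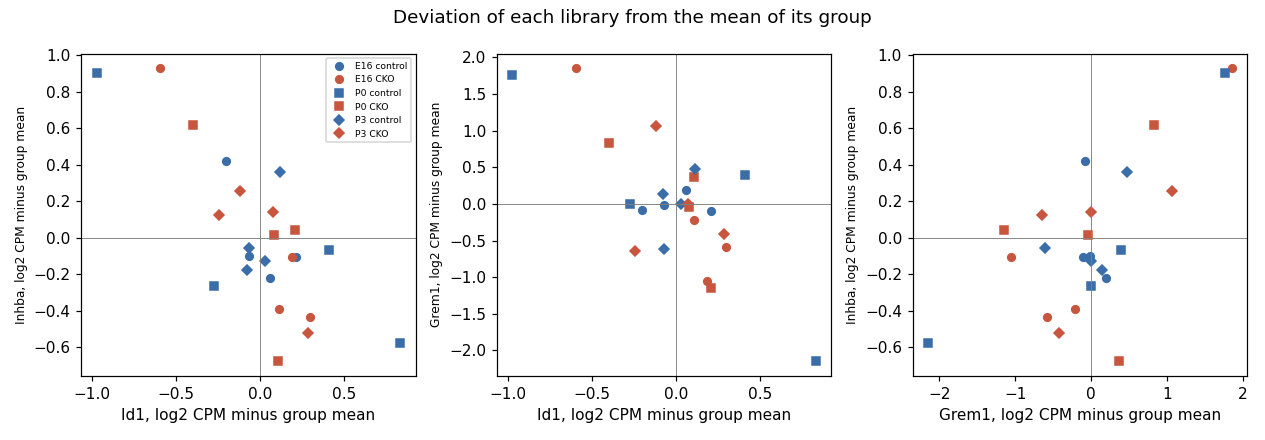
Deviation of each of the 24 libraries from the mean of its group, in log2 CPM, for Inhba against Id1, Grem1 against Id1 and Inhba against Grem1, with circles for E16, squares for P0 and diamonds for P3, controls in blue and CKO lungs in red. P0 control replicate 3 lies at -0.97 for Id1 and 0.90 for Inhba, and P0 control replicate 1 lies at the other end, at 0.84 and -0.58.

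The genes whose log2 CPM was most like that of each member over the 24 libraries were picked by Pearson's r, which follows the stages, and r of the deviations from group means is given beside it. For Bmp6 these were Pirb (0.982, 0.609 in deviations), Cd300lb (0.98, 0.67) and Fgr (0.978, 0.386), and for Fst they were Clec4n (0.968, 0.739), Marco (0.952, 0.553) and Map4 (0.95, 0.504). Pirb, Cd300lb, Fgr, Clec4n and Marco are genes of myeloid cells, and Marco is a scavenger receptor of alveolar macrophages. For Id1 they were Dll4 (0.948, 0.887), Gata2 (0.942, 0.849) and Rhob (0.935, 0.877), of which Dll4, a Notch ligand, and Gata2 are known from endothelium. For Bmp2 they were Klf4 (0.97, 0.733), Fam134b (0.968) and Herpud2 (0.965). For Bmp4 they were Mex3b (0.89, 0.756) and the homeobox genes Hoxb3 (0.886) and Hoxa5 (0.88), the latter known from lung mesenchyme. Bmp5 was closest to Acadsb (0.934, 0.941), Cask (0.92) and Nexn (0.917), which thus held within groups too.

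For the rest, Inhba was closest to Ptprz1 (0.868, 0.803), Akap6 (0.826) and Ankib1 (0.8), and Grem1 to Pirt (0.89, 0.83), Wisp1 (0.875) and again Ankib1 (0.866). Bmp3 had Arrdc3 (0.856, 0.68), Cracr2a (0.849) and Chpt1 (0.828). Nog had the weakest likeness, with Kif26b (0.771, 0.791) and Guk1 (0.718).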

How the data were processed

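Whole-lung RNA was purified with an RNeasy Plus Mini kit and made into TruSeq libraries at each stage, per the labels' protocols. The values used are RSEM expected counts per gene, as deposited by the authors. Named in the submitters' processing notes, with no roles, are RSEM 1.3.0, STAR 2.5.3a, mm10 and edgeR. Annotation, strand and filters were not given in the sources used here. Values of expected counts were whole numbers in the table and needed no rounding. All 24 count columns were tied to samples by name, and no other column of values was used.

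Genes were filtered with filterByExpr, scaled by TMM and tested with edgeR 4.0.16 in R 4.3.3 (robust quasi-likelihood fits), with Benjamini-Hochberg adjustment over all genes tested. This left 16606 genes at E16, 17198 at P0, 17113 at P3 and 18415 in the fits of all 24 libraries, and all 10 genes described passed each filter. Each stage was fitted alone for genotype, all libraries were fitted with stage and genotype for the value over the 3 stages, and contrasts of the 6 groups gave the stage changes and the genotype by stage differences. CPM used TMM-scaled totals, with a prior count of 2 for log2 CPM. Library totals of 27018125 to 36347041 counts give a precision for the scarcest gene, Grem1, that rests on as few as 3 counts. Intervals and SE cover the spread between these samples, which the titles call biological replicates. The closest libraries of a group differed by a chi-square of 18.9 per gene, so none was a duplicate.

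Alternatives were other size factors, filters and tools (DESeq2 1.42.0, limma 3.58.1 voom), blocks, a sex covariate and left-out libraries. Leaving out whole stages or 3 P0 libraries was chosen after seeing the data. The 10 genes and the gene lists were chosen with earlier results of these data known. Named from the 5 pathway lists were up to 4 genes per list with the smallest p over the 3 stages and up to 4 with the smallest p in controls from E16 to P3, at a mean log2 CPM of at least 0. Genes most like a member were the 3 with the highest r at a mean log2 CPM of at least 1, predicted loci passed over. Coordinates are from GENCODE M21 (GRCm38), which matched 51633 of 51912 identifiers. Promoters are from RefSeq, which matched 5 of the 10 genes; Bmp2, Bmp3, Fst, Nog and Id1 are named only. The scripts were tested on simulated data. Values of 2 genes that these rules name are not reported here.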

Additional observations from a re-analysis of the deposited data

Results flagged for a closer look

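In 6 of 60 groups of 4 libraries, 1 library stood apart from the other 3 by Dixon's criterion, where chance gives about 1 in 20. Inhba was at 5.8 CPM in E16 control replicate 2, against 3.69 to 4.02 CPM in the others. It was at 9.46 CPM in E16 CKO replicate 1, against 3.63 to 4.58 CPM. Grem1 stood apart in the same CKO lung, at 1.46 CPM against 0.139 to 0.299 CPM. Fst was at 0.59 CPM in E16 CKO replicate 4, against 1.53 to 1.72 CPM. At P3, Bmp6 was at 33.3 CPM in control replicate 2, against 24.7 to 26.1 CPM, and Nog at 3.17 CPM in CKO replicate 1, against 1.71 to 1.81 CPM.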

How the results depend on the processing

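Under the alternative settings, 105 fold changes of the 10 genes took 3133 values, of which 2997 kept their direction and their side of the threshold, 52 gained a call, 17 lost one and 67 changed sign. The cause of these changes was not tested. Those that lost a call were Fst over the 3 stages, Nog from E16 to P0 and Id1 from E16 to P3 in controls, and Inhba from E16 to P3 in CKO lungs. The value of Fst over the 3 stages was called under every alternative except without the P0 libraries, where it was 0.78 (edgeR, adjusted p = 0.0765); it was 0.67 to 1.22 over its alternatives and 0.87 to 1.09 with 1 library left out.

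Counts of all genes called moved most. At E16, 3 became 299 with DESeq2 and 3 to 188 with 1 library left out, the highest without CKO replicate 4. At P0, 7 became 190 with DESeq2, 32 with voom and quality weights, 3 with Xist as a covariate, 264 in 1 fit of all libraries, 4 without the 2 libraries high in thymocyte markers, 1 without 3 libraries and 3 to 6 with 1 left out. At P3, 2 became 6 with no filter, 603 with DESeq2, 1162 with quality weights, 121 with Xist, 1 with the identifier prefix (its first number) as a block, 14 in 1 fit of all libraries and 1 to 1625 with 1 left out, the highest without CKO replicate 1. Over the 3 stages, 1544 became 3462 with quality weights, 2871 with the prefix block, 486, 788 and 279 without the E16, P0 or P3 libraries, and 981 to 2019 with 1 left out. For P3 against P0, controls gave 1303 with no filter, 4968 with quality weights, 4064 without the 2 thymocyte-high libraries and 740 to 3386 with 1 left out, and CKO lungs gave 1595 with no filter and 1129 to 3051. From E16 to P3 controls gave 11940 with quality weights. For genotype by stage, 0 became 16 with DESeq2, 1 with the prefix block and 1 without the 2 libraries (P0 against E16), 3 with DESeq2 (P3 against P0), and 9 with DESeq2 and 6 with quality weights (P3 against E16), with 0 to 1 for each with 1 left out.

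Of the 10 genes, the number called was 0 to 1 at E16 with 1 library left out (Bmp3), 1 at P0 with DESeq2 (Fst) and 1 in 1 fit of all libraries (Bmp6). At P3 it was 1 with quality weights (Inhba) and 0 to 3 with 1 left out, the 3 being Bmp5, Inhba and Fst without CKO replicate 1. Over the 3 stages it was 2 with quality weights, 2 with the prefix block and 2 without the thymocyte-high libraries, Inhba joining Fst, 0 without the P0 libraries and 1 to 2 with 1 left out. For P3 against P0 in controls it was 3 with quality weights, 2 with Xist, 4 without the thymocyte-high libraries and 1 to 2 with 1 left out. In CKO lungs it was 1 with median-of-ratios size factors, library size only, a filter of 1 CPM, voom, or quality weights, 2 with DESeq2 and 0 to 2 with 1 left out. Calls over all genes for P3 against P0 were 2083 in controls and 2403 in CKO lungs in the main fit. Over the alternatives they were 740 to 4968 in controls and 1129 to 3321 in CKO lungs.

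Signs changed in values that were not called under either setting. Over the 3 stages, Bmp3 was 0.0040 without 3 P0 libraries and 0.021 and 0.061 without the P0 and P3 libraries, Bmp4 was 0.022 without 3 P0 libraries, 0.0028 without the E16 libraries and -0.10 to 0.010 with 1 left out, Bmp6 was -0.11 without the P0 libraries, and Nog was 0.13 without the P3 libraries and -0.19 to 0.0011 with 1 left out.

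At E16, with Xist as a covariate, Bmp2 was -0.029, Bmp4 0.21, Bmp5 -0.026 and Grem1 -0.19. Grem1 was also -0.33 with voom, -0.46 with quality weights, -0.21 with the replicate block and -0.19 with the prefix block. With 1 library left out at E16, Bmp2 was -0.064 to 0.14, Inhba -0.13 to 0.48, Grem1 -0.98 to 0.60 and Id1 -0.12 to 0.12. At P0, Bmp4 was 0.10 without 3 libraries and -0.31 to 0.023 with 1 left out, Bmp5 -0.21 to 0.44 and Grem1 -0.23 to 1.07. At P3, Bmp6 was -0.0027 with the prefix block and -0.018 to 0.12 with 1 left out, and Bmp4 -0.093 to 0.26. The change of the Fst difference from E16 to P0 was -0.38 with Xist.

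From E16 to P0, Inhba in controls was -0.14 without the thymocyte-high libraries and -0.14 to 0.43 with 1 left out. In CKO lungs Bmp3 was 0.0049 with a filter of 1 CPM, 0.13 with Xist, 0.14 without the thymocyte-high libraries and -0.27 to 0.14 with 1 left out, and Nog was -0.054 with library size only, -0.12 with Xist and -0.12 to 0.12 with 1 left out. From P0 to P3 in CKO lungs Nog was -0.14 with quality weights and -0.16 to 0.25 with 1 left out. From E16 to P3 in CKO lungs Bmp5 was -0.016 with library size only, -0.0100 with voom and -0.073 to 0.15 with 1 left out, and Nog was -0.083 with quality weights and -0.14 to 0.22.

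Replicate numbers did not pair the samples: same-numbered libraries had correlations of their deviations of -0.324 to -0.0534 at E16, -0.395 to 0.603 at P0 and -0.213 to 0.104 at P3. Libraries that share the first number of their identifier, whose meaning the labels do not give, had -0.114 to 0.313, 0.0172 to 0.603 and -0.11 to 0.104, and the 2 thymocyte-high libraries share one. With a replicate block 2 genes were called at P0 and 0 at P3.

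With 4 libraries a group, values near the threshold turn on single libraries. Grem1 and Nog rest on few counts, as does Fst at E16. Other tissue in P0 libraries, the P3 control alleles given by the titles and the levels of Sin3a limit what a genotype difference can be tied to.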
